A study of Mus musculus with 12 samples.

Results

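The genes described here are 29 genes of cholesterol synthesis, sterol transport and the sterol regulatory element-binding protein (SREBP) pathway, chosen by name among 23226 single-name genes of a mouse RNA-seq series, and all 29 were measured. The series compared 3 small cell lung cancer lines of the mouse through 12 samples, in 6 groups of 2. 16T cells carried an shRNA against Nfib (sh2 in the titles) or a control shRNA (shLuc), KP1 cells carried the same pair, and KP22 cells carried a vector with Nfib cDNA or an empty vector. The Nfib product belongs to the nuclear factor I (NFI) transcription factors. 16T and KP1 are labelled Nfib high and KP22 Nfib low, and every group, controls included, is labelled Trp53-/-;Rb1-/-. The lines are tumor-derived and grew as floating spheres in serum-containing medium, and serum contains lipoprotein cholesterol. The labels name 1 shRNA per line, and neither clones nor separate cultures are mentioned.

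The deposited values were log2 fold changes with their standard errors (SE, given after ±) and 1 mean normalized count per gene over all libraries. No values per sample were used here, so depth, and how many samples share a direction, are unknown. Rises and falls are named only where the adjusted p was below 0.05. The headings do not give the direction of a comparison. It was read from Nfib, which stood at 47.2% of its control level in 16T with the Nfib shRNA, at 40.0% in KP1 with the Nfib shRNA and at 349% of the empty vector level in KP22 with Nfib cDNA, as computed from the authors' deposited table. Since the direction was taken from it, Nfib does not check the labels here. All 10 neuroendocrine markers were measured, at mean counts of 297.5 (Neurod1) or more per the authors' deposited table. Markers of other cell types had mean counts between 0 (Cd3e) and 157.5 (Cd68) for 4 leukocyte genes, between 0 (Col3a1) and 2220 (Pdgfra) for 4 fibroblast genes, and between 2.11 (Cdh5) and 495 (Kdr) for 3 endothelial genes in the authors' deposited table. There, 4 genes of lung epithelium lay between 0 (Scgb1a1) and 170.8 (Sftpc), 4 steroidogenic genes between 0.738 (Cyp17a1) and 511 (Star), and 3 liver genes between 0 (Alb) and 2.70 (Apob). Whether these genes differ between samples, and their part in the results below, was not tested. Since these are bulk samples, fewer cells of a kind and less RNA per cell cannot be told apart.

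Cells build cholesterol from acetyl-CoA through mevalonate, isoprenoid diphosphates, squalene and lanosterol. Most genes of this route are targets of SREBP-2, with SREBP-1 acting more on fatty acid synthesis. SREBPs lie in the endoplasmic reticulum bound to the escort protein Scap. When sterols are plentiful, Insig proteins hold Scap back. When sterols are low, Scap carries the SREBP to the Golgi, where proteases release its active part. Oxysterols act in the opposite direction on export, through liver X receptors, whose known targets include the exporter genes Abca1 and Abcg1 and Srebf1 itself.

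All 29 genes were detected in the mean over all libraries, which does not give their level in single lines. Mean normalized counts of the 29 genes lay between 596 (Abca1) and 16825 (Srebf2) per the authors' deposited table. Per kilobase of exon, the highest level was that of Fdps, which encodes farnesyl diphosphate synthase, at 6245, followed by the squalene synthase gene Fdft1 at 3812 and by Srebf2 at 3682. The cholesterol exporter gene Abca1 had the lowest level, 58.1 per kilobase, below the median of all expressed genes (233), which the other 28 exceeded. These levels carry no error, because the table holds a single mean for each gene.

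**Figure D1:**
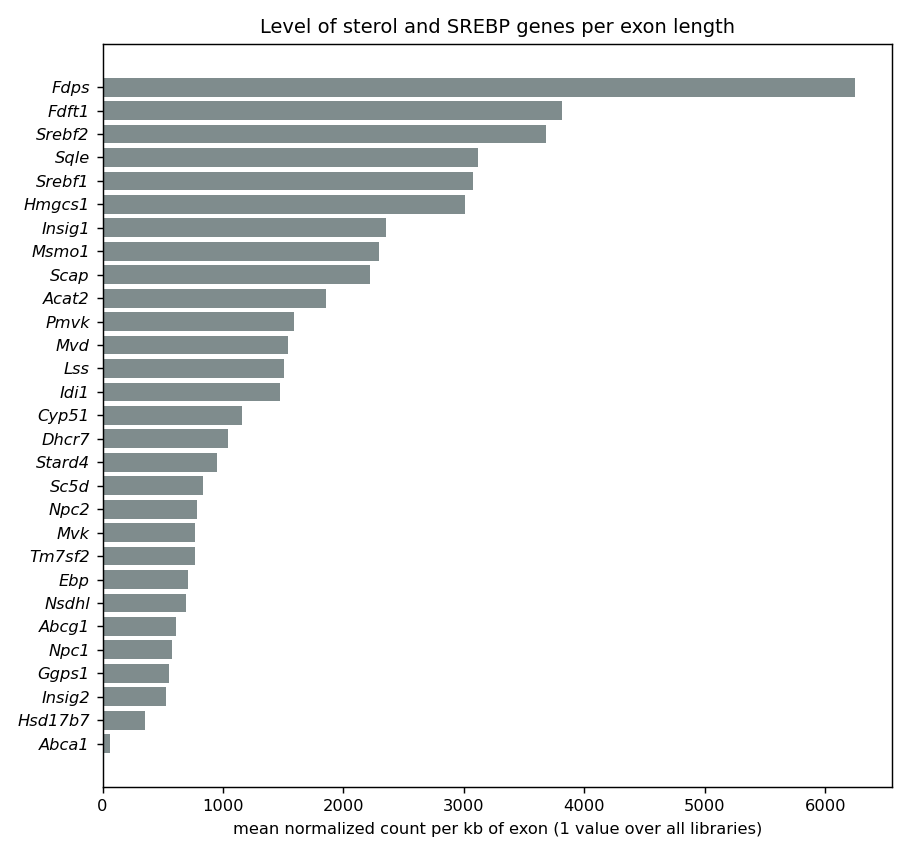
Mean normalized count per kilobase of exon (x axis) for each of the 29 genes (y axis), as 1 value over all libraries with no error bar. Fdps is highest at 6245 and Abca1 lowest at 58.1.

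In KP1 with the Nfib shRNA, of the 29 genes 15 fell, 0 rose and 14 were not called, with a median log2 fold change of -0.20, against -0.02 over all 14504 genes tested. Among all genes tested, 37.2% were called, as 19.6% fell and 17.6% rose, while 51.7% of the pathway genes fell. The changes were modest: the largest fall, in the lanosterol demethylase gene Cyp51, left 65.4% of the control level, and 0 of the 29 genes passed the test against 0.5 in the authors' deposited table, against 4.58% of all genes. At an unadjusted p below 0.05, 2 of the 29 genes were higher, Ebp and Abcg1. Under a t reference with 6 degrees of freedom, 0 rose and 11 fell. No share of all genes under the t reference is given here, so counts under it are not compared with all genes.

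In KP22 with Nfib cDNA, 17 of the 29 genes rose, 4 fell and 8 were not called, with a median of 0.25, against 0.04 over the 17544 genes tested. Of all genes tested in KP22, 38.4% were called, as 19.5% rose and 18.8% fell. The largest rise was that of Mvd, which makes isopentenyl diphosphate from mevalonate diphosphate, at 186% of the empty vector level. Hmgcs1, Mvd, Fdft1, Msmo1 and Hsd17b7, 5 in all, passed the test against 0.5 for KP22 in the authors' deposited table, as did 7.66% of all genes.

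In 16T with the Nfib shRNA 14 of the 29 genes rose, 4 fell and 11 were not called, with a median of 0.13, against -0.05 over the 14504 genes tested. Of all genes tested, 45.3% were called in 16T, as 20.0% rose and 25.3% fell. Recentred on the median gene, 16 of the 29 rose and 2 fell in 16T, and of all genes 23.9% rose and 20.4% fell. Under the t reference, 9 rose and 1 fell in 16T. In the authors' mean of both knockdown lines, 7 rose and 12 fell per the authors' deposited table, where 20.2% of all genes rose and 25.1% fell. Abca1 was the only one of the 29 past a change of 1 in any line, and the only one called in 16T by the authors' test against 0.5 in the authors' deposited table (5.25% of all genes were called).

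**Figure D2:**
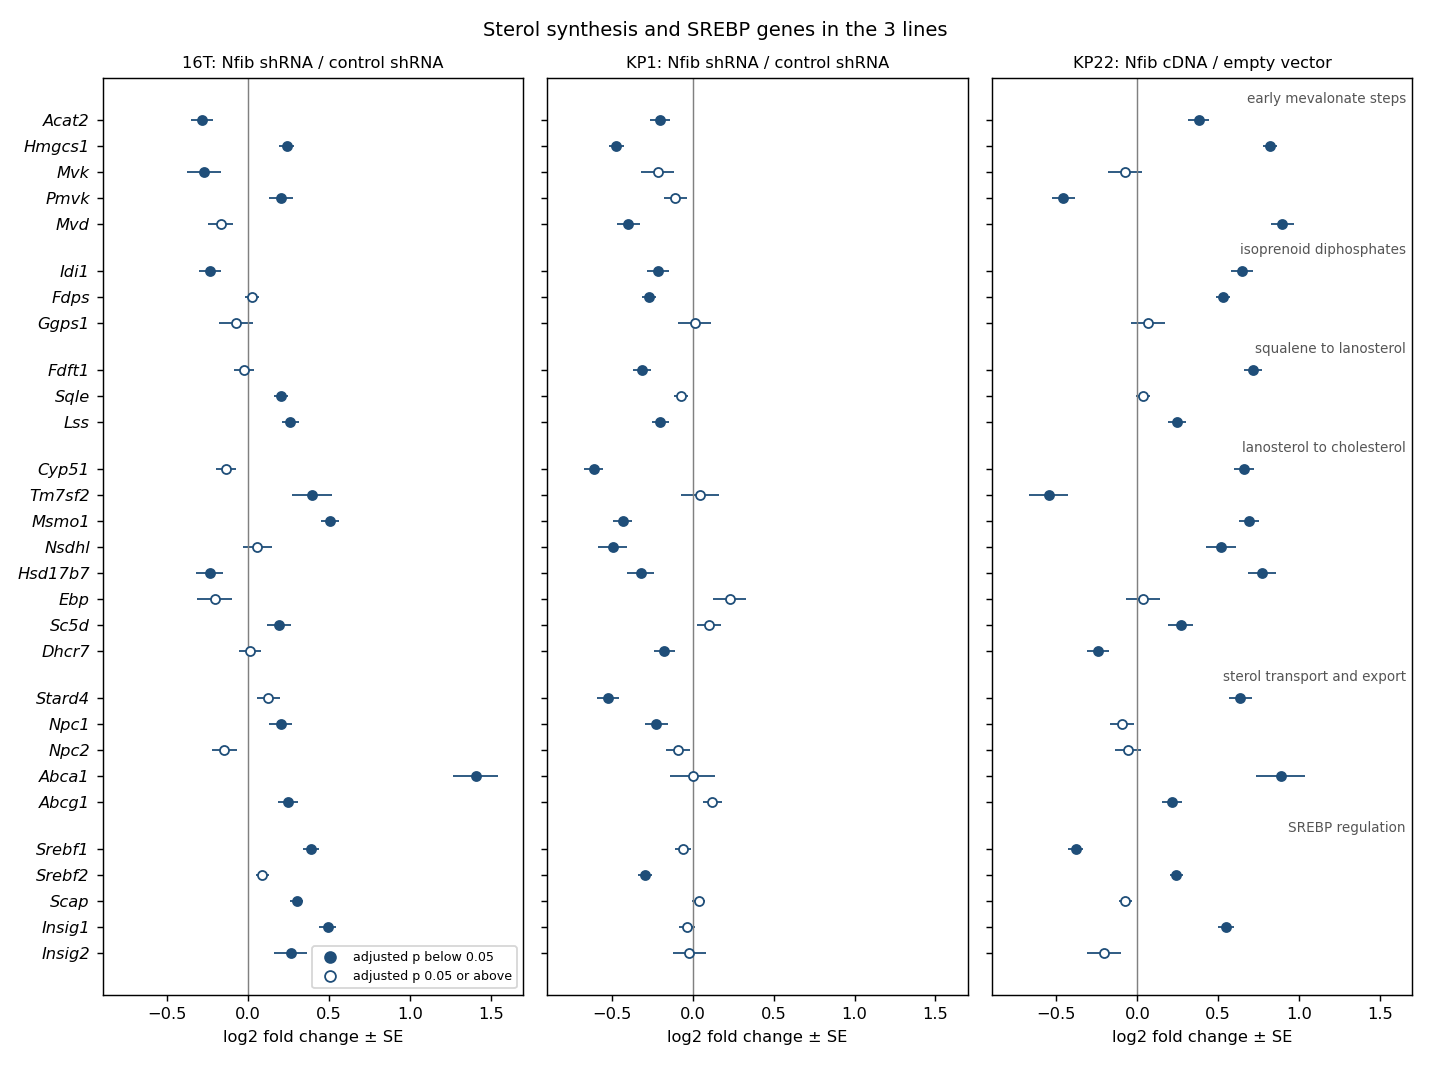
Log2 fold change with its SE (x axes) of the 29 genes, grouped by role (y axis), in 16T and KP1 with the Nfib shRNA over control shRNA and in KP22 with Nfib cDNA over empty vector; filled points have an adjusted p below 0.05. In KP1 all 15 filled points lie below 0, in KP22 17 of 21 lie above 0, and in 16T 14 of 18 lie above 0, with Abca1 farthest out at 1.41.

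At the entry to the pathway, Hmgcs1, which encodes the cytosolic HMG-CoA synthase, rose in 16T (0.24 ± 0.046, adjusted p = 2.07e-06), fell in KP1 (-0.47 ± 0.045, adjusted p = 4.58e-24) and rose in KP22 (0.82 ± 0.046, adjusted p = 7.5e-69), as listed in the authors' deposited table. It thus stood at 118% of control in 16T, 72.1% in KP1 and 177% of the empty vector level in KP22. Acat2, the cytosolic acetoacetyl-CoA thiolase gene, fell in both knockdown lines (-0.28 ± 0.067 in 16T and -0.20 ± 0.064 in KP1) and rose in KP22 (0.38 ± 0.065), as listed in the authors' deposited table. It has a close paralog, Acat3, and how reads matching both were counted is not known here. Mvd fell in KP1 (-0.40 ± 0.073) and rose in KP22 (0.90 ± 0.073), with -0.17 ± 0.076 in 16T (adjusted p = 0.0582), per the authors' deposited table.

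Neither kinase gene between these steps rose in KP22, where Pmvk fell and Mvk was not called. Pmvk, the phosphomevalonate kinase gene, rose in 16T (0.20 ± 0.073) and fell in KP22 (-0.46 ± 0.072), with -0.11 ± 0.071 in KP1, per the authors' deposited table. Mvk, the mevalonate kinase gene, fell in 16T (-0.27 ± 0.11), and its values in KP1 (-0.22 ± 0.10) and KP22 (-0.07 ± 0.11) were not called in the authors' deposited table. Recentred on the median gene, the fall of Mvk in 16T was no longer called (-0.22, adjusted p = 0.0834). Neighboring enzymes of 1 route therefore had opposite calls within KP22, where Mvd rose and Pmvk fell.

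Of the isoprenoid diphosphate genes, Idi1, the isopentenyl diphosphate isomerase gene, fell in 16T (-0.24 ± 0.069) and KP1 (-0.21 ± 0.068) and rose in KP22 (0.65 ± 0.068), as listed in the authors' deposited table. Under the t reference the adjusted p of Idi1 was 0.0531 in 16T and 0.0837 in KP1. Fdps fell in KP1 (-0.27 ± 0.043) and rose in KP22 (0.53 ± 0.043), with 0.03 ± 0.044 in 16T, per the authors' deposited table. Ggps1, whose enzyme makes geranylgeranyl diphosphate for protein prenylation, was called in no line, and its 95% intervals ran from -0.28 to 0.13 in 16T, from -0.19 to 0.21 in KP1 and from -0.14 to 0.27 in KP22, as computed from the authors' deposited table.

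Squalene synthase Fdft1 fell in KP1 (-0.32 ± 0.054) and rose in KP22 (0.71 ± 0.056), with -0.03 ± 0.060 in 16T, per the authors' deposited table. Exons that Fdft1 shares with Ctsb, counted apart, had -0.18 ± 0.068 in 16T, -0.03 ± 0.062 in KP1 (adjusted p = 0.819) and 0.24 ± 0.064 in KP22 per the authors' deposited table. The next enzyme gene, Sqle, which encodes squalene epoxidase, rose in 16T (0.20 ± 0.043) and had -0.07 ± 0.042 in KP1 and 0.03 ± 0.043 in KP22 per the authors' deposited table. It was thus not called in KP22, where its neighbor Fdft1 reached 164% of the empty vector level. Lss, the lanosterol synthase gene, rose in 16T (0.26 ± 0.054), fell in KP1 (-0.20 ± 0.053) and rose in KP22 (0.25 ± 0.054), as listed in the authors' deposited table.

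Of the 8 genes between lanosterol and cholesterol, 3 rose and 1 fell in 16T, 0 rose and 5 fell in KP1, and 5 rose and 2 fell in KP22. Of all genes tested, 20.0% rose and 25.3% fell in 16T, 17.6% rose and 19.6% fell in KP1, and 19.5% rose and 18.8% fell in KP22. Among the 8 genes, Msmo1 had the largest difference between 16T and KP1. Msmo1 encodes the sterol C4-methyl oxidase and is listed under its older symbol Sc4mol. It rose to 142% of control in 16T (0.50 ± 0.057, adjusted p = 2.65e-17), fell to 74.1% in KP1 (-0.43 ± 0.059, adjusted p = 5.64e-12) and rose to 161% of the empty vector level in KP22 (0.69 ± 0.063), per the authors' deposited table. Its partners in removing the C4 methyl groups, Nsdhl and Hsd17b7, both fell in KP1 (-0.50 ± 0.089 and -0.32 ± 0.084) and rose in KP22 (0.52 ± 0.093 and 0.77 ± 0.086), as listed in the authors' deposited table. Hsd17b7 also fell in 16T (-0.24 ± 0.084), although not when recentred (adjusted p = 0.0627), and Nsdhl had 0.06 ± 0.091 there, per the authors' deposited table. Cyp51 fell in KP1 (-0.61 ± 0.059, adjusted p = 1.62e-23) and rose in KP22 (0.66 ± 0.062), with -0.14 ± 0.062 in 16T (adjusted p = 0.0619), per the authors' deposited table.

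The late sterol enzymes did not share this pattern. Tm7sf2, a sterol C14-reductase gene, rose in 16T (0.40 ± 0.12) and fell in KP22 (-0.55 ± 0.12, 68.4% of the empty vector level), with 0.04 ± 0.12 in KP1, per the authors' deposited table. Exons that Tm7sf2 shares with Vps51 were not called in either line in the authors' deposited table (0.01 ± 0.14 in 16T and -0.04 ± 0.13 in KP22). Dhcr7, which encodes the last reductase of one branch, fell in KP1 (-0.18 ± 0.063) and KP22 (-0.25 ± 0.068), with 0.01 ± 0.068 in 16T, per the authors' deposited table. Neither call of Dhcr7 was made under the t reference (adjusted p of 0.116 in KP1 and 0.0511 in KP22). Sc5d, the lathosterol oxidase gene, rose in 16T (0.19 ± 0.076) and KP22 (0.27 ± 0.079), with 0.10 ± 0.075 in KP1, per the authors' deposited table. Ebp, the sterol isomerase gene, was called in no line, at -0.21 ± 0.11 in 16T, 0.23 ± 0.10 in KP1 and 0.04 ± 0.11 in KP22 per the authors' deposited table.

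For sterol transport, Stard4, which encodes a cytosolic sterol carrier and is a known SREBP target, fell in KP1 (-0.52 ± 0.068, 69.6% of control) and rose in KP22 (0.64 ± 0.071), with 0.13 ± 0.070 in 16T, per the authors' deposited table. Npc1, which exports cholesterol from lysosomes, rose in 16T (0.20 ± 0.074) and fell in KP1 (-0.22 ± 0.072), with -0.10 ± 0.075 in KP22, per the authors' deposited table. Its soluble partner gene Npc2 was called in no line and measured -0.15 ± 0.077 in 16T, -0.09 ± 0.074 in KP1 and -0.06 ± 0.080 in KP22 per the authors' deposited table. Abca1 rose to 265% of control in 16T (1.41 ± 0.14, adjusted p = 9.87e-23) and to 185% of the empty vector level in KP22 (0.89 ± 0.15, adjusted p = 5.16e-08), and had 0.00 ± 0.14 in KP1, per the authors' deposited table. Abcg1, a second sterol exporter gene, rose in 16T (0.25 ± 0.060) and KP22 (0.22 ± 0.061), with 0.12 ± 0.061 in KP1, per the authors' deposited table.

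The regulators split between the SREBP genes. Srebf2 fell in KP1 (-0.29 ± 0.040, 81.5% of control) and rose in KP22 (0.24 ± 0.041), with 0.09 ± 0.041 in 16T, per the authors' deposited table. Srebf1 rose in 16T (0.39 ± 0.048) and fell in KP22 (-0.38 ± 0.048, 76.7% of the empty vector level), with -0.06 ± 0.047 in KP1, per the authors' deposited table. In KP22 the pair therefore moved in opposite directions. Exons that Srebf1 shares with Rai1 rose in 16T (0.28 ± 0.070) and fell in KP22 (-0.20 ± 0.070) as well in the authors' deposited table. Scap rose in 16T (0.30 ± 0.040), with 0.04 ± 0.039 in KP1 and -0.07 ± 0.040 in KP22, per the authors' deposited table.

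Insig1, itself a known SREBP target, rose in 16T (0.49 ± 0.052) and KP22 (0.55 ± 0.051) and had -0.04 ± 0.049 in KP1 per the authors' deposited table. Insig2 rose in 16T (0.26 ± 0.10) and had -0.02 ± 0.10 in KP1 and -0.21 ± 0.11 in KP22 (adjusted p = 0.122) per the authors' deposited table. A further 376 bp, listed under a doubled Insig2 name, fell in KP22 (-0.64 ± 0.21, adjusted p = 0.0105) and rose in 16T (0.53 ± 0.20) per the authors' deposited table. Of the 5 regulators, 4 rose in 16T, 1 fell in KP1, and 2 rose and 1 fell in KP22. Of all genes tested, 45.3% were called in 16T, 37.2% in KP1 and 38.4% in KP22, so 1 of 5 in KP1 lay below that share.

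Lowered Nfib in KP1 and raised Nfib in KP22 were measured on separate samples. Of the 15 pathway genes that fell in KP1, 13 rose in KP22 (86.7%), Dhcr7 fell and Npc1 was not called. Among all 14504 genes tested in all 3 lines, 2844 fell in KP1 and 40.6% of these rose in KP22. The 13 genes with this pair of calls were Acat2, Hmgcs1, Mvd, Idi1, Fdps, Fdft1, Lss, Cyp51, Msmo1, Nsdhl, Hsd17b7, Stard4 and Srebf2, and the pair of calls was found in 7.96% of all genes tested. Across the 29 genes, Pearson's r of the log2 fold changes in KP22 and KP1 was -0.57, against -0.24 across the 14504 genes. For KP22 and 16T, r was 0.03 across the 29 genes, against -0.33 across the 14504 genes. Of the 14 pathway genes that rose in 16T, 7 also rose in KP22 (50%) and 3 fell. Among all genes that rose in 16T, 14.96% rose in KP22 and 45.85% fell. Of the 4 pathway genes that fell in 16T, 3 rose in KP22, against 41.34% of all genes that fell in 16T. Genes are not independent replicates. The 29 genes had mean counts of 596 or more, while the genes tested in 16T reached down to 15.7. Neither r nor the shares of all genes, here and in the other paragraphs, were matched for expression level. The part of expression level in these comparisons was not tested.

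**Figure D3:**
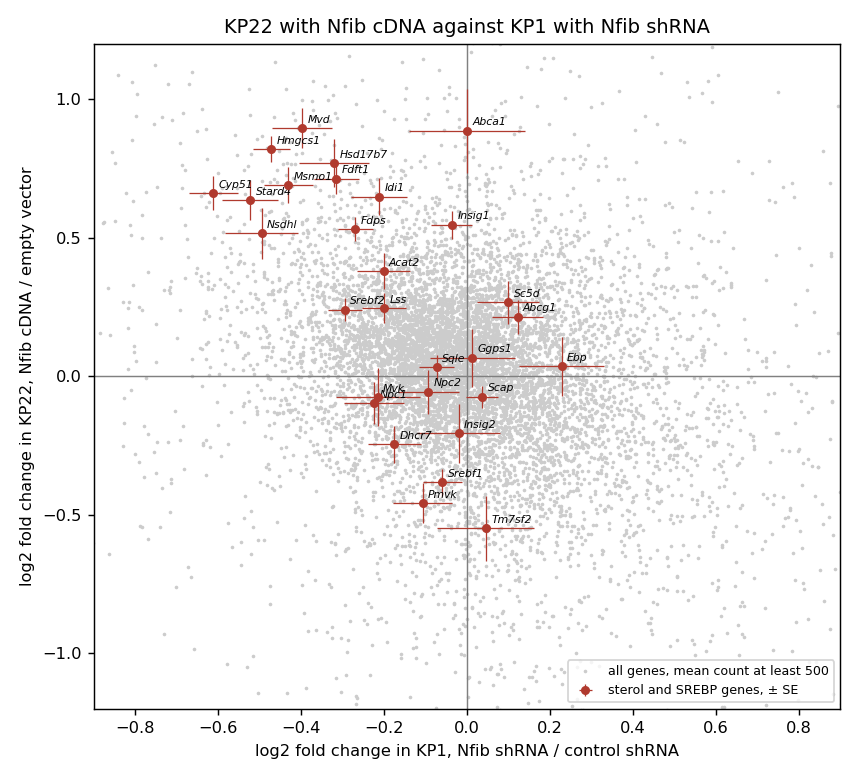
Log2 fold change in KP22 with Nfib cDNA over empty vector (y axis) against that in KP1 with the Nfib shRNA over control shRNA (x axis), for the 29 genes (red, ± SE) and for all genes with a mean count of at least 500 (grey; some lie outside the axes). Of the 15 genes that fell in KP1, 13 lie in the upper left part with a rise in KP22, and Pmvk, Srebf1 and Tm7sf2 lie low in KP22.

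The promoters of 4 of these 13 genes, and that of Tm7sf2, which fell in KP22, are shown to compare the letters just before the start of genes that moved together with those of a gene that did not. RefSeq promoters (GRCm38.p6, the same assembly as mm10) were matched for 23 of the 29 genes, and the 250 bases before the annotated start were searched on both strands. Capitals mark the CCAAT box (CCAAT, or ATTGG on the other strand), the letters bound by NF-Y, and the sterol response element TCACNCCAC bound by SREBPs.
Hmgcs1, chr13:119690101-119690350, plus strand: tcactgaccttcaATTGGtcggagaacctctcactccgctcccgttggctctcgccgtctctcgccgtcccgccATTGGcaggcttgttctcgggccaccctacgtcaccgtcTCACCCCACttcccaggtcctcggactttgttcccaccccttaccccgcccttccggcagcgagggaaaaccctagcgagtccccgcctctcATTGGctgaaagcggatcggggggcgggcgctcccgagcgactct
Mvd, chr8:122443423-122443672, minus strand: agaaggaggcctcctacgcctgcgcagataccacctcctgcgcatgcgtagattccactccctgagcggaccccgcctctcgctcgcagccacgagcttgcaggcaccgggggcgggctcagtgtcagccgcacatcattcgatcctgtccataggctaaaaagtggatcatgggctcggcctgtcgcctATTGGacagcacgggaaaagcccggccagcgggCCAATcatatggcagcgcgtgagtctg
Idi1, chr13:8885356-8885605, plus strand: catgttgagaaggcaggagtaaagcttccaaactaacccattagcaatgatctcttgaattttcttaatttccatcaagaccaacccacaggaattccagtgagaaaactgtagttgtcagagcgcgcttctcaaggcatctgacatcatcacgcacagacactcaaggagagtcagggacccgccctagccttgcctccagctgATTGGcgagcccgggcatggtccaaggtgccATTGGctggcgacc
Cyp51, chr5:4104698-4104947, minus strand: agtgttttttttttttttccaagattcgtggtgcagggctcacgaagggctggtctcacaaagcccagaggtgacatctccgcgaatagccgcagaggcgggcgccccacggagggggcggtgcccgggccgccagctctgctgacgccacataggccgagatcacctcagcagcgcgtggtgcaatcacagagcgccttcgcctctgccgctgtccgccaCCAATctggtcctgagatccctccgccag
Tm7sf2, chr19:6067851-6068100, minus strand: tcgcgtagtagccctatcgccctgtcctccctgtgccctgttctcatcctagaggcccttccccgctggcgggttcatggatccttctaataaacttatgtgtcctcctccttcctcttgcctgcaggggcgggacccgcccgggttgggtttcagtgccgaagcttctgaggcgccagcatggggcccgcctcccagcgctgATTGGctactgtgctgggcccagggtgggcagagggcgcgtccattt

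The exact sterol response element letters were in 1 of the 23 genes, Hmgcs1, 137 to 129 bases before the start, and in 1.22% of all 27025 genes with a promoter. Allowing 1 mismatch, they were in 10 of the 23 genes (43.5%) and in 22.95% of all genes, and in 7 of the 10 promoters matched among the 13 genes that fell in KP1 and rose in KP22. A CCAAT box was in 20 of the 23 genes (87.0%) and in 37.5% of all genes, and Hmgcs1 held 3 of them. Tm7sf2 has a CCAAT box as well, so the box did not set apart the genes that moved together among the 5 shown. The full NFI palindrome, TTGGC and GCCAA with 5 bases between them, was in 0 of the 23 genes and in 12 of all genes. Its single arm TTGGC, which overlaps the CCAAT box where ATTGGC is read, was in 18 of the 23 genes (78.3%) and in 45.3% of all genes. These matches describe letters and are not evidence of binding.

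The knockdown effect was then compared directly between 16T and KP1. The difference, 16T minus KP1, was tested from the deposited effects and SEs over 15008 genes. It was above 0 for 16 of the 29 genes, below 0 for 1 (Ebp) and not called for 12, with a median of 0.29, against -0.03 over all genes. Of all genes, 29.4% were called in this test, 2097 higher and 2320 lower, and 55.2% of the pathway genes were called higher. Under the t reference 14 of the 29 were above 0 and 0 below, so Ebp was no longer called. The largest difference was that of Abca1 (1.41 ± 0.20, adjusted p = 2.66e-11). Msmo1 followed with 0.94 ± 0.082 (adjusted p = 6.94e-28), then Hmgcs1 with 0.71 ± 0.065, Stard4 with 0.65 ± 0.097, Nsdhl with 0.55 ± 0.13 and Insig1 with 0.53 ± 0.071.

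Opposite calls in 16T and KP1 were found for 4 genes, Hmgcs1, Lss, Msmo1 and Npc1, each higher in 16T and lower in KP1. For Npc1 neither call was made under the t reference (adjusted p of 0.0984 in 16T and 0.0853 in KP1). On exons that Lss and Npc1 share with other genes, none of their calls in 16T or KP1 was made. Values there were 0.23 ± 0.19 in 16T and -0.01 ± 0.18 in KP1 for Lss. For Npc1 they were 0.22 ± 0.14 in 16T and -0.23 ± 0.14 in KP1. These SEs exceed those of the single-name features. Acat2, Idi1 and Hsd17b7 fell in both knockdown lines and their differences were small (-0.08 ± 0.092, -0.02 ± 0.097 and 0.08 ± 0.12). They were 20% of the 15 pathway genes that fell in KP1, while 50.4% of all genes that fell in KP1 also fell in 16T. Across the 29 genes Pearson's r of the effects in 16T and KP1 was 0.24, against 0.45 across the 14504 genes. The remaining Nfib level differed between these lines as well (47.2% of control in 16T and 40.0% in KP1, from the authors' deposited table), and its part in the differences was not tested.

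**Figure D4:**
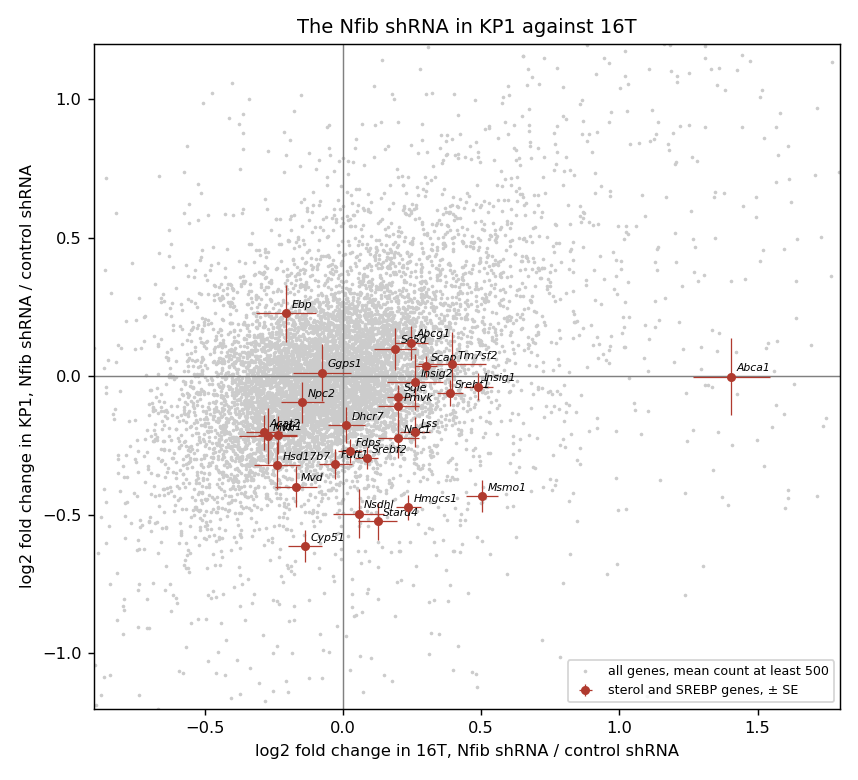
Log2 fold change with the Nfib shRNA over control shRNA in KP1 (y axis) against 16T (x axis), for the 29 genes (red, ± SE) and for all genes with a mean count of at least 500 (grey; some lie outside the axes). Hmgcs1, Lss, Msmo1 and Npc1 lie at the lower right, higher in 16T and lower in KP1, and Abca1 lies far to the right at 1.41.

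**Figure D5:**
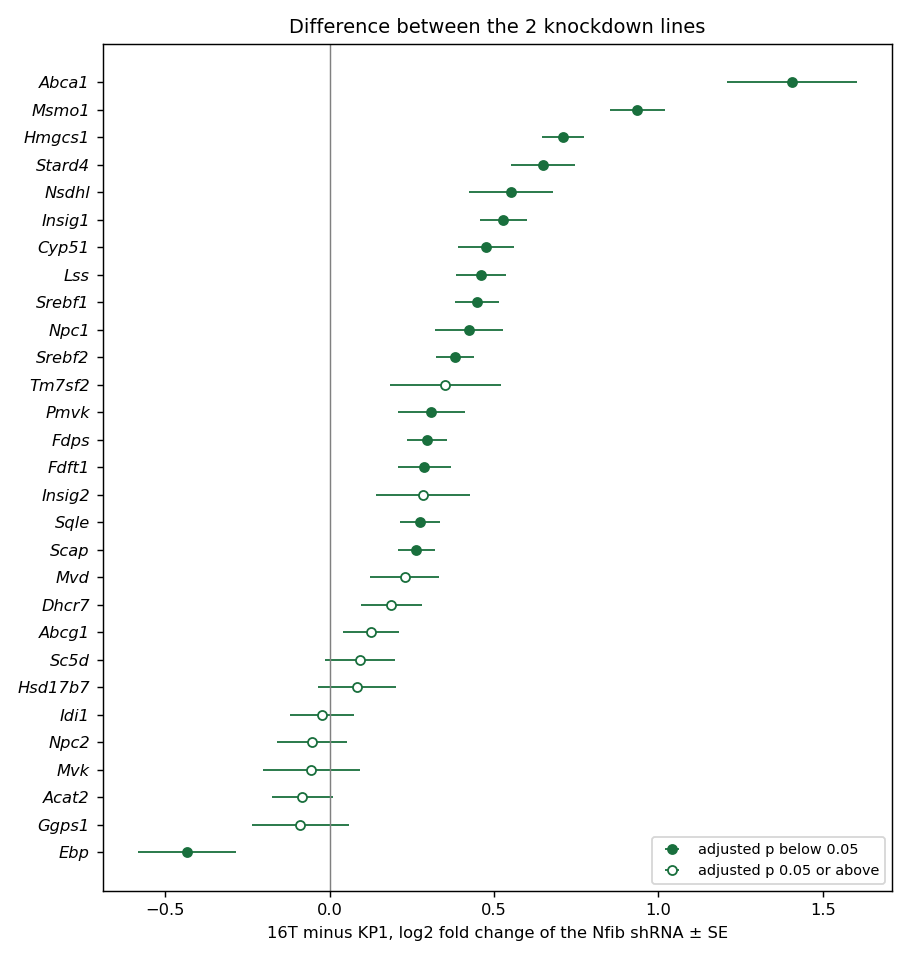
Difference of the knockdown effects, 16T minus KP1 (x axis, log2 scale, ± SE), for the 29 genes in order of size (y axis); filled points have an adjusted p below 0.05. Of 17 filled points, 16 lie above 0, from 0.26 (Scap) to 1.41 (Abca1), and Ebp lies below 0 at -0.43.

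Turned so that each stands for higher Nfib, the effects of the 3 lines were averaged. The SE of this mean was built from the SEs within lines and leaves out the spread between lines. A call therefore does not show an effect shared by the 3 lines. The mean was above 0 for 13 of the 29 genes and below 0 for 5, with 11 not called, against 52.9% of all 15008 genes called, 4383 higher and 3562 lower. Recentred on the median gene, the counts were 12 and 8, and of all genes 24.2% were then higher and 27.6% lower. The largest means were those of Mvd (0.49 ± 0.043, adjusted p = 5.04e-29), Cyp51 (0.47 ± 0.035, adjusted p = 2.14e-39), Hsd17b7 (0.44 ± 0.049) and Idi1 (0.37 ± 0.039). Below 0 were Tm7sf2 (-0.33 ± 0.069), Srebf1 (-0.24 ± 0.028), Pmvk (-0.18 ± 0.042), Insig2 (-0.15 ± 0.059) and Scap (-0.14 ± 0.023). Taken line by line, Insig2 and Scap were called in 16T only. Acat2, Idi1 and Hsd17b7 were the 3 genes called in all 3 lines with lower levels in both knockdown lines and higher levels in KP22, a combination held by 5.33% of the 14504 genes. Under the t reference none of the 3 kept it, as the calls of Acat2 in KP1 (adjusted p = 0.081), Hsd17b7 in 16T (adjusted p = 0.0883) and Idi1 in both knockdown lines were lost.

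The response of KP22 was then set against that of the knockdown lines, both as the effect of higher Nfib. KP22 minus the knockdown lines was above 0 for 16 of the 29 genes and below 0 for 4, against 36.7% of all 15008 genes called, 2657 higher and 2858 lower. It was largest for Abca1 (1.59 ± 0.18, adjusted p = 4.34e-17), which rose in 16T with the shRNA and in KP22 with the cDNA. Insig1, which rose in the same comparisons, had 0.77 ± 0.062 (adjusted p = 5.63e-34), Msmo1 had 0.73 ± 0.076 and Hmgcs1 had 0.70 ± 0.056. The negative differences were those of Pmvk (-0.41 ± 0.088), Dhcr7 (-0.33 ± 0.082), Mvk (-0.32 ± 0.13) and Srebf1 (-0.22 ± 0.059). The change in Nfib itself was larger in KP22, at 349% of the empty vector level, as computed from the authors' deposited table. In the knockdown lines Nfib stood at 47.2% of control (16T) and 40.0% (KP1), from the authors' deposited table. The part of this unequal Nfib change in the differences was not tested.

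Of 30 further genes of sterol synthesis, SREBP processing and cholesterol handling, 11 rose and 3 fell in 16T, 3 rose and 12 fell in KP1, and 10 rose and 7 fell in KP22, with medians of 0.12, -0.08 and 0.08. Over all genes tested, higher calls made up 20.0% (16T), 17.6% (KP1) and 19.5% (KP22), and lower calls 25.3% (16T), 19.6% (KP1) and 18.8% (KP22). Osbpl5, an oxysterol-binding protein relative, fell in KP22 (-1.59 ± 0.23) per the authors' deposited table. The 16T minus KP1 difference was called higher for 13 and lower for 2 of the 30, with 29.4% of all genes called.

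Of 14 genes that use isoprenoids for other products, 1 rose and 6 fell in 16T, 0 rose and 2 fell in KP1, and 3 rose and 1 fell in KP22. The shares of all genes called in either direction were 45.3% in 16T, 37.2% in KP1 and 38.4% in KP22, so 2 of 14 in KP1 lay below that share. Pdss1 and Pdss2, which build the side chain of coenzyme Q, fell in 16T (-0.45 ± 0.13 and -0.49 ± 0.16), and Pdss1 rose in KP22 (0.49 ± 0.13), as listed in the authors' deposited table. Rabggta, a subunit gene of Rab geranylgeranyl transferase, fell in 16T (-0.45 ± 0.086) and KP1 (-0.30 ± 0.083) and rose in KP22 (0.36 ± 0.081), as listed in the authors' deposited table.

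SREBP-linked fatty acid synthesis was followed through 16 genes, of which 6 rose and 6 fell in 16T, 2 rose and 9 fell in KP1, and 7 rose and 4 fell in KP22, beside the same 45.3%, 37.2% and 38.4% of all genes called. Lpin1, a phosphatidate phosphatase gene, moved like the 13 sterol genes above, with a fall in KP1 (-0.64 ± 0.055) and a rise in KP22 (0.65 ± 0.058), per the authors' deposited table. The stearoyl-CoA desaturase gene Scd1 had opposite calls in 16T (0.99 ± 0.20) and KP1 (-0.68 ± 0.20) per the authors' deposited table. Thrsp fell in both knockdown lines (-0.67 ± 0.092 in 16T and -0.64 ± 0.092 in KP1) and rose in KP22 (0.96 ± 0.097), as listed in the authors' deposited table. The cytosolic acetyl-CoA synthetase gene Acss2 rose in 16T (0.39 ± 0.081), fell in KP1 (-0.30 ± 0.080) and fell to 23.8% of the empty vector level in KP22 (-2.07 ± 0.090), per the authors' deposited table.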

How the data were processed

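Per the labels' protocols, Qiagen RNeasy extracts were made into Illumina TruSeq v2 libraries. TopHat, bedtools, DESeq and DESeq2 are named with the build mm10 in the submitters' processing notes, with roles, versions and settings not given in the sources used here. Per the file headers, the authors gave for each of 28112 features 1 mean of normalized counts (signal), log2 fold changes and SEs, the Wald score, p-values and adjusted p-values, and the same for a test against a change of 0.5. A deposited list of 211975 merged exon intervals was used for positions and lengths. Features joining several genes or copies (4886) were left out of the counts of genes, and 6 of the 29 genes have such a feature. Of the 29 names, 28 matched directly and 1 by an older symbol with the same position.

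The design foresaw counts per sample. As results per comparison were used here, the authors' adjusted p-values below 0.05 were used. The 16T minus KP1 difference, the mean effect of higher Nfib and KP22 minus the knockdown lines were computed from effects and SEs, added as independent, for 15008 single-name genes with a mean of at least 10, using normal p-values adjusted by Benjamini-Hochberg (Python 3.11.15, scipy 1.17.1). Checked on 25 simulated tables of 15008 genes with 200 changed by 0.5, these recovered 48.7%, 77.1% and 54.6% of the changes. The simulated effects were drawn with the deposited SEs, so they cannot check those SEs. The 200 genes were drawn from all 15008, so the rates are not those of the 29 genes. No label ties the replicates to separate cultures, so p-values measure only the spread between these samples within a line, not that between lines. All 29 genes are named by rule, and from the other lists at most 4 genes each, by largest change. Some genes that this rule selects are not reported here. The genes and lists were chosen with earlier results of these data known. Alternatives were other filters, recentring, a t reference, a fold threshold and joined-name features.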

Additional observations from a re-analysis of the deposited data

Results flagged for a closer look

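The effect of the Nfib shRNA differed between 16T and KP1, by a test of the difference itself, for 17 of the 29 genes, against 29.4% of all genes tested. On the log2 scale, 16T minus KP1, the enzyme genes had 0.71 (Hmgcs1), 0.31 (Pmvk), 0.30 (Fdps), 0.29 (Fdft1), 0.28 (Sqle), 0.46 (Lss), 0.48 (Cyp51), 0.94 (Msmo1), 0.55 (Nsdhl) and -0.43 (Ebp). The transport genes had 0.65 (Stard4), 0.42 (Npc1) and 1.41 (Abca1). The regulators had 0.45 (Srebf1), 0.38 (Srebf2), 0.26 (Scap) and 0.53 (Insig1).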

How the results depend on the processing

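Filters on the mean moved no count of called genes by over 1.5 times. For the t reference and for a required change of at least 0.5, no shares of all genes are given. Those counts are therefore not compared with all genes. Requiring a change of at least 0.5 left 2 genes in 16T, 2 in KP1, 13 in KP22, 1 for the mean of both knockdown lines, 6 for 16T minus KP1, 6 for KP22 minus the knockdown lines and 0 for the mean effect of higher Nfib, and the authors' test against 0.5 left 1, 0 and 5 in 16T, KP1 and KP22. Under the t reference 10 of 18 calls were made in 16T; of the 87 values of single genes, 15 lost their call, all with the same sign: Hsd17b7, Idi1, Insig2, Mvk, Npc1, Pmvk, Sc5d and Tm7sf2 in 16T, Acat2, Dhcr7, Idi1 and Npc1 in KP1, and Abcg1, Dhcr7 and Sc5d in KP22. Uncalled values changed sign for Abca1 in KP1 (0.016), Fdft1 in 16T (0.024), and Ebp and Sqle in KP22 (-0.0023 and -0.0048) when recentred, and for Insig2 (0.049), Srebf1 (0.15) and Tm7sf2 (-0.14) in KP1 and Npc1 in KP22 (0.049) on joined-name features. On joined-name features Lss was not called in 16T (0.23, adjusted p = 0.335) or KP1 (-0.01, adjusted p = 0.970), nor Npc1 in 16T (0.22, adjusted p = 0.214) or KP1 (-0.23, adjusted p = 0.201); the cause was not tested. No paired analysis was possible because no values per sample were used; leaving out replicates and other normalizations were not run for the same reason. Library depth is unknown, and precision is that of the deposited SEs, between 0.039 and 0.15 for the 29 genes.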
